A study of Homo sapiens with 12 samples.

Results

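Histone genes were followed through ribodepleted total RNA of human stem cell derived cardiomyocytes. Members were the rows whose names match the histone name patterns H1-, H1F, H2A, H2B, H3, H4 or the older HIST names, without antisense and pseudogene names, and with at least 100 counts summed over the 12 libraries. Of 60583 rows, 181 matched the patterns, 88 of these carried antisense or pseudogene names, and 30 of the remaining 93 had under 100 counts, 9 of them with no count at all. This left 63 members, chosen on their summed counts, and all 63 passed the filter on low counts that left 21298 genes for testing. By name and place, 54 were replication-dependent genes of the HIST1 to HIST4 clusters and 8 were replacement genes. The remaining member was H2AZ1-DT, a noncoding gene that starts next to H2AZ1, at 0.305 to 0.840 CPM (counts scaled to a common library total) in the 6 sums, which is left out of the counts of histone genes below. The members just inside the limit were H1-6 with 120 counts and H2AZ1-DT with 127, and the genes just outside were H4C14 with 66 and H2BC3 with 41.

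The cells were cardiomyocytes of RUES2, an established human embryonic stem cell line, with the wild-type (WT) genotype in all samples. At day 50 they were placed for 3 days on an electrospun scaffold. One kind was 8% PVA, which does not conduct and served as control, and the other 9.75% PEDOT:PSS/PVA, which does (written PEDOT below). Each scaffold had 3 biological replicates with 2 technical libraries each, and the technical libraries of a replicate were summed, so that 6 sums entered each fit. No label says that the biological replicates came from separate differentiations, so the p-values speak only for the spread among these sums, which may be technical. Sums held 44487633 to 57493893 counts and the single libraries 19117192 to 30954829. The 9 cardiomyocyte markers were all detected, together at 60976 to 93495 CPM in single libraries, and markers of other cells were present too, with 9 fibroblast markers together at 716 to 6948 CPM.

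Replication-dependent histone genes supply the proteins that package newly copied DNA. They lie in clusters, are transcribed in S phase, mostly lack introns, and their messages end in a stem-loop in place of a poly(A) tail, so that they are retained in total RNA but largely lost when poly(A) RNA is selected. Replacement genes are single genes with ordinary polyadenylated messages, are transcribed outside S phase too, and supply variants such as H3.3 and H2A.Z that are placed into chromatin in cells that do not divide. In heart muscle, where most cells leave the cell cycle as they mature, replacement variants take a growing part of the histone pool.

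The stem-loop was read from annotated transcripts (GENCODE 29, where 50 of the 54 replication-dependent and all 8 replacement members had a protein-coding transcript). A stem of 6 pairs around a loop of 4 bases was found in 22 of the 50 replication-dependent members and in 1 of 8 replacement members, against 43 of all 19684 genes with a coding transcript, or 0.218%. The annotation ends at the stop codon for 24 of the 50, and of the 26 with an annotated 3′ untranslated part 22 held the stem-loop. It is shown here for members that the results turn on, 5′ to 3′, with the 16 bases of the stem-loop in capitals and up to 5 bases on either side.

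H2BC21: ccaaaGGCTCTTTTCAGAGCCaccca
H2BC4: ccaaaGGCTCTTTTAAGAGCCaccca
H2AC11: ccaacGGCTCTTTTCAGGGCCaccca
H3C6: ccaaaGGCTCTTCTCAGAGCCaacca
H4C2: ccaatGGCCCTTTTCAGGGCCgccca
H4C9: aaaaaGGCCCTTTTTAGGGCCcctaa
H2AX: acaaaGGCCCTTTTAAGGGCCaccac

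Counting whole 16-base forms, loop included, that of H2BC21 was found in 11 members, that of H2BC4 in 4 and that of H4C2 in 4, while H2AC11, H3C6, H4C9 and H2AX each had a form of their own. H2BC21, H2BC4 and H3C6 differ from each other in the loop alone, as do H4C2, H4C9 and H2AX. H2AX, which encodes the variant phosphorylated at DNA breaks, was the only replacement member with the stem-loop. In 12 of the 22 replication-dependent members the annotated transcript ran on for more than 100 bases after it, for example for 1729 bases in H2BC21 and 1761 in H2AC11, and 13 of the 22 also had the letters AATAAA, the core of the polyadenylation signal, within their last 100 bases.

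Promoters were taken from RefSeq (GRCh38.p14, 250 bases before to 50 after the annotated start), where 53 of the 62 histone members matched, 46 replication-dependent and 7 replacement. The window was searched on both strands for CCAAT, for the TATA box letters TATAAA and for the octamer ATTTGCAT. CCAAT stood in 40 of 46 replication-dependent promoters (87.0%) and 6 of 7 replacement promoters, against 35.7% of 27305 promoters, and the 6 without it were all H4 promoters. TATAAA stood in 31 of 46 and 4 of 7, against 11.95% of all. The octamer stood in 8 of 10 H2A and 12 of 15 H2B promoters, in none of the 21 replication-dependent H1, H3 and H4 promoters, in 1 of 7 replacement promoters and in 1.80% of all. All the H2B promoters with an octamer had it within the 150 bases before the start, but only H2AC4 and H2AC6 among the H2A promoters did. Windows of divergent neighbours overlap, so a single octamer can be counted for both genes. The 150 bases before the start are shown for a neighbouring H2A and H2B pair, for an H3 and an H4 gene that differed between replicates, and for a pair of replacement genes, with these motifs in capitals.

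H2BC21 (chr1:149886683-149886832, minus strand): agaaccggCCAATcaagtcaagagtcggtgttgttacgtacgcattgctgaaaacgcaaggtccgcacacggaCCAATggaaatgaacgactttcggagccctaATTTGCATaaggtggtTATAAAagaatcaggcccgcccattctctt
H2AC20 (chr1:149886768-149886917, plus strand): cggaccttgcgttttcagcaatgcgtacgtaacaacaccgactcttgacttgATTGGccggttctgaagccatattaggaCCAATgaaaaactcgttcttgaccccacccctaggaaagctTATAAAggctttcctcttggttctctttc
H3C7 (chr6:26250636-26250785, minus strand): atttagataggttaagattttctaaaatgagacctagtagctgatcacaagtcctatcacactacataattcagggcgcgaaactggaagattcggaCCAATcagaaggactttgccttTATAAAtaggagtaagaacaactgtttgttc
H4C6 (chr6:26240243-26240392, plus strand): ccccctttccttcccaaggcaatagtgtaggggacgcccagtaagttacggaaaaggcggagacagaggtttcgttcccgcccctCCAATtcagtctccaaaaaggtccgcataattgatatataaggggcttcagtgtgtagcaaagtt
H2AX (chr11:119095466-119095615, minus strand): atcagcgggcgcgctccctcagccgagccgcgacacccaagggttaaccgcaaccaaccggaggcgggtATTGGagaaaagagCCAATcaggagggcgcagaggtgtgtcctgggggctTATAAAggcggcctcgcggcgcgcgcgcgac
H3-3B (chr17:75779780-75779929, minus strand): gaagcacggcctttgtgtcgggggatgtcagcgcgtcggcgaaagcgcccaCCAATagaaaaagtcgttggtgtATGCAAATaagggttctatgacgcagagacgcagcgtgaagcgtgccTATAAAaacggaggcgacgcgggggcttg

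A match gives only the letters in this window. The octamer counted for H2AC20 lies outside its own stretch and is the one shown for H2BC21, since the windows of this pair overlap. H3-3B, one of the genes for H3.3, was the replacement member with the octamer.

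Histone genes took 0.118% to 0.162% of all counts of a sum. The 54 replication-dependent members together stood at 985, 1034 and 1147 CPM on PVA in replicates 1, 2 and 3 and at 765, 964 and 1158 CPM on PEDOT. PEDOT replicate 1 was the lowest sum, both sums of replicate 3 were the highest, and the scaffolds overlapped. The 8 replacement members together stood at 454, 450 and 480 CPM on PVA, beside 412, 416 and 497 CPM on PEDOT. The ratio of the classes was 2.17, 2.30 and 2.39 on PVA and 1.86, 2.32 and 2.33 on PEDOT, so that replacement genes weighed most in PEDOT replicate 1. By scaffold, replication-dependent members were at 1056 ± 83.2 CPM on PVA, beside 962 ± 197 on PEDOT, and replacement members at 461 ± 16.3 and 442 ± 48.2 (SD, n = 3 each), differences within the spread between replicates. Here and below CPM is scaled by the trimmed mean of M-values (TMM) factors, and fewer cells of a type cannot be told apart from less RNA per cell in such bulk samples.

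**Figure D1:**
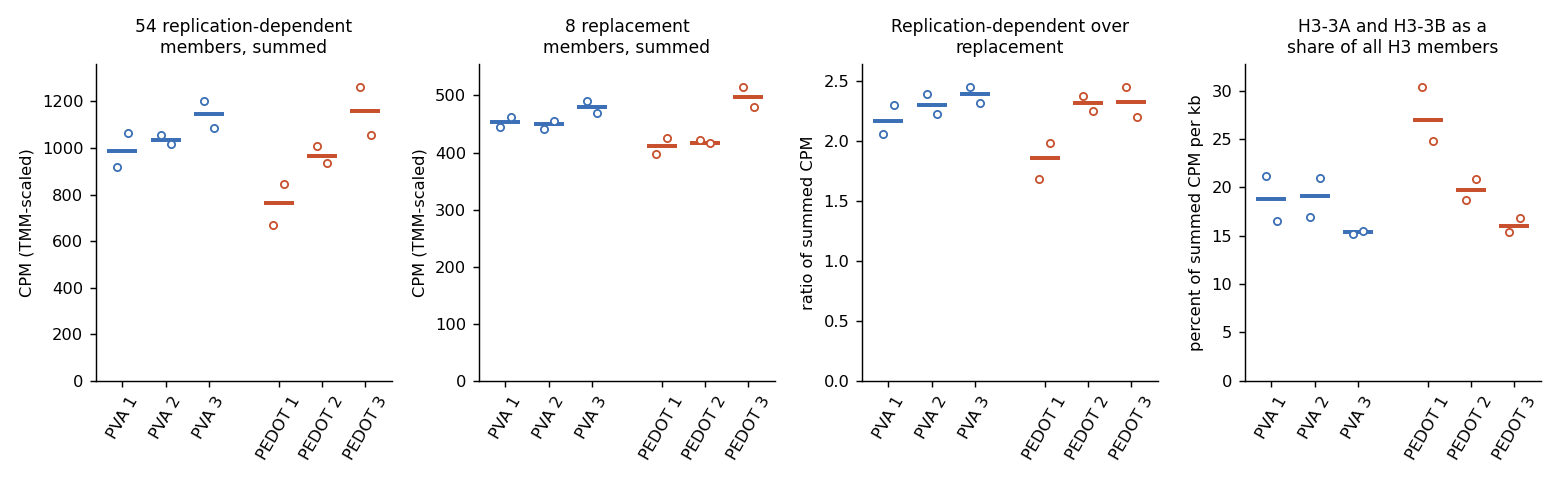
Summed CPM of the replication-dependent and the replacement members, their ratio, and the share of H3-3A and H3-3B in the per-kilobase level of all H3 members, for each scaffold and replicate number. Bars are sums of technical libraries and circles the single libraries. PEDOT replicate 1 has the lowest ratio, 1.86, and the highest H3.3 share, 27%. The size of the H3.3 share rests on annotated exon lengths.

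Levels were compared between genes as CPM per kilobase of annotated exon, which rests on the annotated length. Replication-dependent members ran from 0.566 to 134 CPM per kilobase with a median of 12.6, and replacement members from 1.39 to 25.1 with a median of 18.6. Among replication-dependent families the summed level per kilobase was 252 for the 5 linker histone H1 genes, 300 for 12 H2A genes, 302 for 16 H2B genes, 132 for 9 H3 genes and 280 for 12 H4 genes. The deposited counting command sets no option to keep reads that match several genes. The HIST2 genes H3C14, H3C15, H2AC18, H2AC19 and H4C15, which have near-identical copies, were listed with 5, 3, 11, 9 and 13 counts over the 12 libraries, and H4C14 with 66. Family levels are thus those of genes to which reads could be assigned, and how much near-identical copies add was not tested.

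The leading genes carried unequal parts of their families. H2AC20 in the HIST2 cluster (chr1:149886975-149887364) was at 134 CPM per kilobase, 44.7% of the replication-dependent H2A level. H1-2 (chr6:26055787-26056428), a linker histone gene, was at 132 per kilobase, 52.5% of its family, followed by H1-4 at 64.6. H4C6 and H4C2 led H4 with 68.1 and 63.8, H2BC4 and H2BC21 led H2B with 55.6 and 55.5, and H3C2 and H3C7 led H3 with 33.1 and 20.1. Per kilobase, the H2B level was spread most widely, with 18.4% in its leading gene. These ranks and shares rest on annotated exon length. In mean CPM, H2AC6 (57.2) stood above H2AC20 (52.3), and H2BC21 (122) above H2BC4 (46.4). H3C6 (42.0) stood above H3C2 (16.8), and H4C8 (58.25) above H4C6 (21.2). H1-2 led H1 by both measures.

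By place, the first block of HIST1 on chromosome 6 (26020490 to 26285638 on hg38) held 26 members and 60.8% of the summed replication-dependent CPM. The 5 members of HIST2 on chromosome 1 held 20.4%, the 15 of the last HIST1 block (27807444 to 27893843) 9.12% and the 5 of the middle block 6.63%. HIST3 with H2AW and H2BU1 and HIST4 with H4-16 held 1.48% and 1.56%. Of the 54, 37 had annotated exons of 1000 bases or less and 17 had longer ones.

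Among the replacement genes described here, per kilobase, H2AZ2 was at 25.1, H1-10 at 24.5, H2AZ1 and H3-3A at 18.6 each, H2AX at 17.1, H3-3B at 11.5 and H2AJ at 1.39. H2AZ1 and H2AZ2 encode H2A.Z, H3-3A and H3-3B the same H3.3 protein, H1-10 a linker histone variant, and H2AJ an H2A variant. H3-3A and H3-3B made up 18.8%, 19.1% and 15.4% of the H3 level per kilobase on PVA, and 27%, 19.7% and 16.1% on PEDOT. The share was highest in PEDOT replicate 1 and lowest in replicate 3 of both scaffolds. Its size rests on the annotated exons, which are 5019 bases for H3-3A and 6134 for H3-3B. Without division by length the H3.3 genes were the larger part, with a summed mean CPM of 163 beside 118 for the replication-dependent H3 members.

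The first comparison asked whether the conductive scaffold changed histone RNA. None of the 21298 genes was called by edgeR's quasi-likelihood test with Benjamini-Hochberg adjustment (0% called, 190 genes at an unadjusted p under 0.05, and 0 called by DESeq2), and so no histone member was called. The median log2 fold change of PEDOT against PVA was -0.18 over the 54 replication-dependent members, 50 of them below 0, and -0.05 over the 8 replacement members, 7 of them below 0. Over all genes tested it was -0.01, with 51.9% below 0. Without PEDOT replicate 1 the replication-dependent median was -0.02, without PVA replicate 3 it was -0.07, and without PEDOT replicate 3 it was -0.39. The replacement median was -0.16 without PEDOT replicate 3, -0.12 without PVA replicate 2 and -0.09 without PVA replicate 1, and nearer 0 than -0.03 without each of the others.

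With the replicate number as a block, 57 genes were called (0.268%) and again no histone member, while 19 of the 54 replication-dependent members and 1 of the 8 replacement members had an unadjusted p under 0.05, against 8.32% of all genes. Leaving out pair 3 under this block gave 6 called histone members and 284 called genes, and leaving out pair 1 or 2 gave no called member.

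H3C12, an H3 gene of the last HIST1 block (chr6:27890382-27893106), had the smallest p. It was at 7.30, 4.85 and 6.19 CPM on PVA, beside 3.03, 3.40 and 4.51 CPM on PEDOT. All PVA sums were above all PEDOT sums. Its log2 fold change was -0.75 ± 0.23 (SE, n = 3 each), with an unadjusted p of 0.0149 and an adjusted p of 1.00 in edgeR's test, and an adjusted p of 0.100 with the block. Of its annotated exon bases, 44.6% are shared with H2AC17 on the same strand, where the counting command sets no option to keep reads that overlap several genes. Such separation, all PEDOT sums below all PVA sums, was seen in 2 of the 54 replication-dependent members and 0 of the 8 replacement members, against 2.31% of all genes tested.

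The other separated member was H2BC14, a weakly expressed H2B gene, at 0.931, 0.870 and 0.985 CPM on PVA, beside 0.367, 0.625 and 0.851 CPM on PEDOT. Its log2 fold change of -0.60 ± 0.34 (SE) had an adjusted p of 1.00 in edgeR's test. With the block it was -0.64 ± 0.29 (SE, adjusted p 0.596 in edgeR's test). H2AC13, an H2A gene of the same block, was at 9.92, 6.87 and 9.76 CPM on PVA, beside 4.26, 4.44 and 9.53 CPM on PEDOT. Replicate 3 of H2AC13 was alike on both scaffolds, so that the groups overlapped, and the log2 fold change was -0.54 ± 0.34 (SE). With the block it was -0.61 ± 0.17 (SE, adjusted p 0.252 in edgeR's test). The replacement genes with the smallest p were H2AX, H3-3B and H3-3A. H2AX was at 28.1, 29.5 and 30.5 CPM on PVA, beside 19.8, 26.4 and 31.5 on PEDOT, with a log2 fold change of -0.18 ± 0.17 (SE). With the block it was -0.20 ± 0.09 (SE, adjusted p 0.597 in edgeR's test). H3-3B differed by -0.11 ± 0.11 and H3-3A by -0.08 ± 0.09, both with an adjusted p of 1.00 in edgeR's test.

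Pair by pair, the difference of log2 CPM between PEDOT and PVA was widest in replicate 1. The replication-dependent median was -0.48 in replicate 1, with 52 of 54 below 0. It was -0.13 in replicate 2, with 44 below 0, and -0.01 in replicate 3, with 31 below 0. Replacement medians were -0.14, -0.09 and 0.02, and those of all genes -0.001, -0.02 and 0.004. Of the 54, 24 were below 0 in all 3 pairs (44.4%) and none above in all 3, against 15.5% and 13.3% of all genes. PEDOT replicate 1 was the lowest of the 6 sums in 48 of 54 replication-dependent and 3 of 8 replacement members, against 14.8% of all genes.

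**Figure D2:**
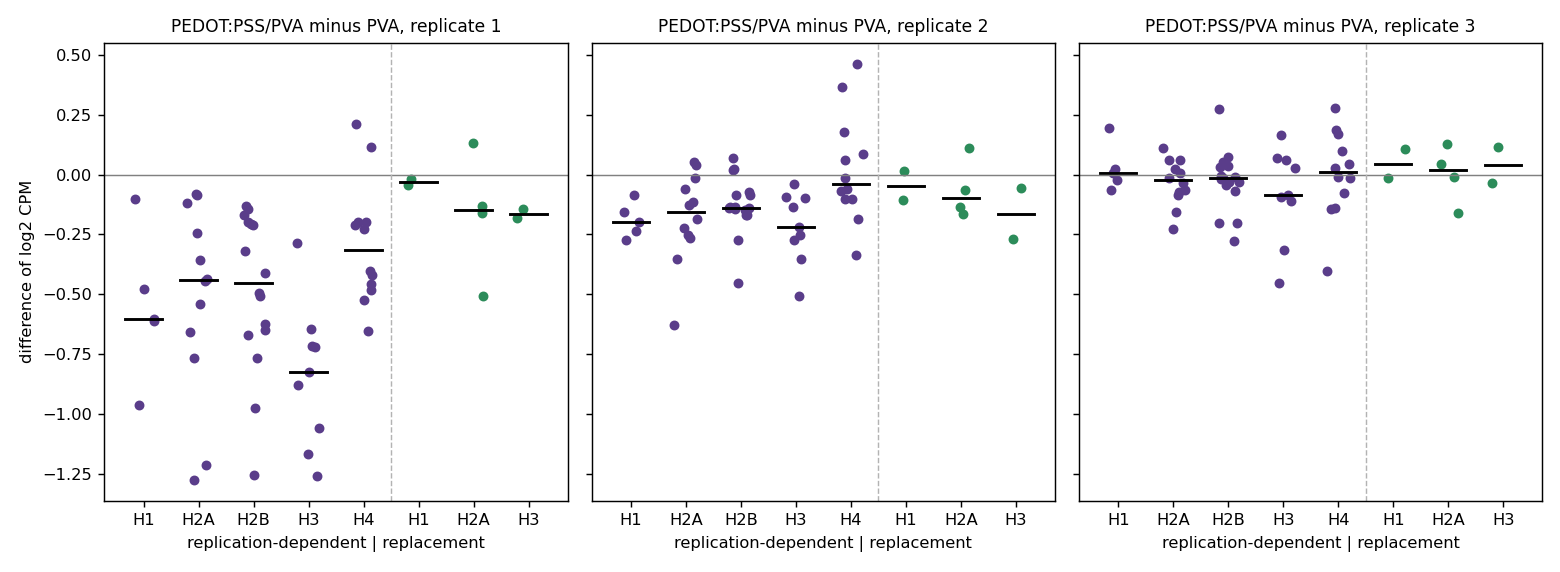
Difference of log2 CPM, PEDOT:PSS/PVA minus PVA, in each replicate pair, for every histone member by class and family. Points are members and black bars medians. H3 genes lie lowest in replicate 1, with a median of -0.83, and all families lie near 0 in replicate 3.

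In replicate 1 the family medians were as follows, with no test between them. The 9 replication-dependent H3 genes had a median of -0.83 there, the 5 H1 genes -0.60, the 16 H2B genes -0.45, the 12 H2A genes -0.44 and the 12 H4 genes -0.32. Members with exons of 1000 bases or less were at -0.60 and those with longer exons at -0.23. H2AC14 and H2BC14, a divergent pair of the last block, were at -1.27 and -1.25, while H2AC20 and H2BC21, the divergent pair of HIST2, were at -0.08 and -0.13. These last members were singled out after their values were seen.

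Technical libraries of one replicate also differed. The higher-numbered library minus the lower-numbered had a replication-dependent median of 0.22 and 0.37 on log2 in replicate 1 of PVA and PEDOT, -0.09 and -0.11 in replicate 2, and -0.13 and -0.27 in replicate 3. These were libraries 3 and 2 in both sums of replicate 1 and in PVA replicate 2. They were libraries 2 and 1 in PEDOT replicate 2, and 3 and 1 in both sums of replicate 3. The scaffold difference in replicate 1, by comparison, was -0.48. What separates technical libraries is not given in the labels, and their part in the scaffold difference was not tested.

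Genes of DNA replication and of mitosis were also lower in PEDOT than in PVA in replicate 1, by their medians. The 41 genes of the S phase list had medians of -0.27, -0.09 and -0.00 in the 3 pairs, and the 32 genes of the mitosis list -1.07, -0.12 and 0.10. None of either list was called in the scaffold fit. RRM2, a subunit of ribonucleotide reductase, was at 23.3, 18.6 and 28.6 CPM on PVA, beside 8.59, 12.3 and 27.3 CPM on PEDOT, with a log2 fold change of -0.55 ± 0.42 (SE). BIRC5, which encodes survivin, was at 10.7, 8.40 and 10.8 CPM on PVA, beside 3.82, 8.21 and 10.7 on PEDOT. Both were lowest in PEDOT replicate 1. Fibroblast markers summed to 3516 to 6948 CPM in single libraries of replicate 1. The highest of these was at 4277 CPM on PVA and at 6948 on PEDOT, so cell makeup was not alike within this pair. The part of cell makeup or of cycling cells was not tested.

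The second comparison set the replicate numbers against each other, with the scaffold in the model. Sums of the same number deviated together, and 6776 of 21298 genes were called for the replicate number by edgeR's quasi-likelihood test (31.8%). Of the histone members 31 of 54 replication-dependent and 6 of 8 replacement genes were called. Most calls were of higher levels in replicate 3. Against replicate 1, 21 of 54 replication-dependent members were called higher and 0 lower, with a median log2 fold change of 0.49, while 6.79% of all genes were called higher and 6.42% lower. Against replicate 2, 16 were called higher and 1 lower, with a median of 0.32, beside 11.9% and 7.57% of all genes. In replicate 2 against 1, 11 were called higher and 0 lower, with a median of 0.17, beside 13.3% and 15.7% of all genes. Both sums of replicate 3 lay above the 4 others in 34 of 54 replication-dependent and 4 of 8 replacement members, against 11.2% of all genes.

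**Figure D3:**
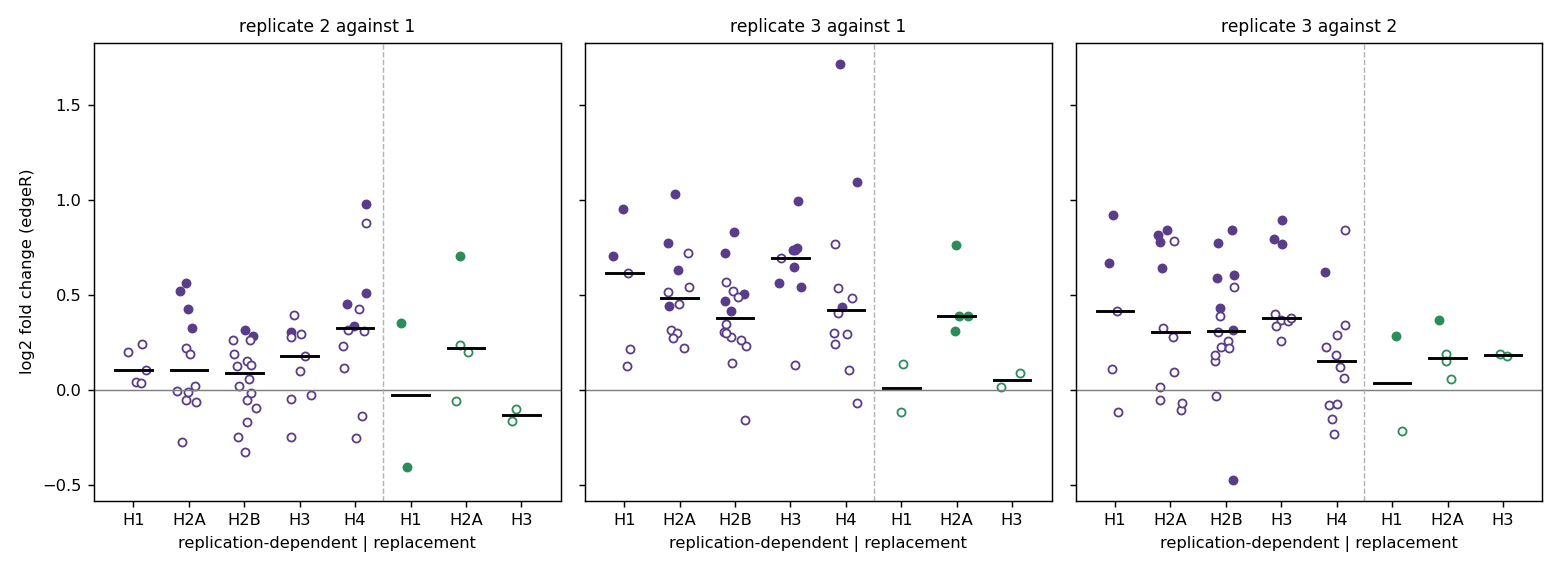
Log2 fold change between replicate numbers for every histone member by class and family, from the fit with the scaffold as a term. Filled points passed an adjusted p of 0.05 and open points did not, and black bars are medians. In replicate 3 against 1, 52 of 54 replication-dependent members lie above 0.

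These counts depended on the technical libraries. On both scaffolds the sums of replicate 1 hold libraries 2 and 3, and those of replicate 3 hold libraries 1 and 3. In replicate 3 against 1 the lower-numbered libraries thus set library 1 against library 2, and the higher-numbered ones library 3 against library 3. Library number and replicate number cannot be fully told apart in this contrast of sums. With the lower-numbered library of each replicate alone 38 histone members were called higher in replicate 3 against 1, with the higher-numbered library alone 6, and with their sums 25. The replication-dependent median of that contrast was 0.74, 0.16 and 0.49 in the same order. It was 0.26 without PEDOT replicate 1, with 14 members called higher, and 0.74 without PVA replicate 1, with 38. Without PEDOT replicate 3 it was 0.37, with 11 called. For replicate 3 against 2, 2 members were called higher without PVA replicate 2, 3 without PEDOT replicate 3, 8 without PEDOT replicate 2 and 11 without library 3 of PEDOT replicate 1, against 18 with all sums. For replicate 2 against 1 the median turned to -0.07 without PEDOT replicate 1 and to -0.04 with the higher-numbered libraries alone, and from 0.17 it went to 0.07 without library 2 of PEDOT replicate 1 and to 0.26 without library 3 of PVA replicate 1. The 13 called members of that contrast became 24 without PVA replicate 1, 7 or 8 without PVA replicate 2, PEDOT replicate 1 or PEDOT replicate 2, and 5 with the higher-numbered libraries alone.

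The contrasts share sums, so their calls are given side by side. In replicate 2 against 1 the 11 replication-dependent members called higher were H4C2, H4C5, H4C6 and H4C8 of H4, H2AC6, H2AC12, H2AC15 and H2AC20 of H2A, H2BC12 and H2BC21 of H2B, and H3C6. In replicate 3 against 2 the 16 were H1-3 and H1-5, H2AC4, H2AC11, H2AC13 and H2AC14, H2BC4, H2BC6, H2BC9, H2BC10, H2BC11 and H2BC17, H3C2, H3C7 and H3C8, and H4C9.

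H4C6, the leading H4 gene per kilobase, was at 14.3, 25.4 and 26.4 CPM on PVA, beside 10.8, 23.7 and 26.9 CPM on PEDOT. Replicate 1 was low on both scaffolds and replicates 2 and 3 were alike. Its log2 fold change was 0.98 ± 0.11 (SE) in replicate 2 against 1 and 1.10 ± 0.11 in replicate 3 against 1, with adjusted p of 1.56e-05 and 1.87e-05 in edgeR's test. H2AC6 was at 48.3, 63.6 and 62.8 CPM on PVA, beside 44.5, 60.9 and 63.1 on PEDOT, in the same order of replicates, with a log2 fold change of 0.44 ± 0.08 (SE) in replicate 3 against 1. H2BC21, the member with the most counts, was at 106, 129.9 and 141 CPM on PVA, beside 96.8, 117 and 140.0 on PEDOT, lowest in replicate 1 of both scaffolds. It was called higher in replicates 2 and 3 against 1 and not in replicate 3 against 2 (0.19, adjusted p 0.115 in edgeR's test).

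H1-5, a linker histone gene, was at 24.02, 19.01 and 33.8 CPM on PVA, beside 12.3, 17.04 and 33.9 CPM on PEDOT. Replicate 3 was above all other sums and alike on both scaffolds. Its log2 fold change was 0.95 ± 0.17 (SE) against replicate 1 and 0.92 ± 0.17 against replicate 2, with adjusted p of 0.00159 and 0.00142 in edgeR's test. In DESeq2 the first was 0.96 with an adjusted p of 0.0580. H3C7 was at 7.97, 7.35 and 11.9 CPM on PVA, beside 4.48, 5.75 and 12.2 on PEDOT, with 1.00 ± 0.17 (SE) and 0.90 ± 0.17 against replicates 1 and 2. H2AC11 was at 25.8, 23.0 and 34.1 CPM on PVA, beside 17.7, 19.7 and 32.4 on PEDOT, with 0.63 ± 0.11 (SE) and 0.64 ± 0.11. Replicate 3 again stood above all other sums in both genes. With the higher-numbered libraries alone the first contrast of H3C7 was 0.60 (adjusted p 0.0762) and that of H2AC11 0.39 (0.0707), neither of them called.

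H3C2, the leading H3 gene per kilobase, was at 19.2, 14.4 and 23.5 CPM on PVA, beside 9.21, 12.4 and 21.8 on PEDOT. Replicate 3 was the highest on each scaffold, and the log2 fold change against replicate 1 was 0.74 ± 0.17 (SE, adjusted p 0.0105 in edgeR's test). Of the 9 H3 genes 7 were called higher in replicate 3 against 1, with a median of 0.69. The 5 H1 genes had 2 called and a median of 0.61, the 12 H2A genes 4 and 0.48, the 12 H4 genes 3 and 0.42, and the 16 H2B genes 5 and 0.38. Members with exons of 1000 bases or less had a median of 0.54 with 12 of 37 called, and those with longer exons 0.44 with 9 of 17 called.

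H1-2 and H1-4, the leading linker histone genes, were not called for the replicate number (adjusted p 0.247 and 0.152 in edgeR's test). H1-2 was at 92.2, 86.8 and 91.7 CPM on PVA, beside 66.2, 81.9 and 90.4 on PEDOT, low only in PEDOT replicate 1, and H1-4 was at 46.2, 56.5 and 45.4 on PVA and 43.0, 49.2 and 51.9 on PEDOT. H2AC20 was at 47.2, 59.99 and 52.3 CPM on PVA, beside 44.6, 55.0 and 54.5 on PEDOT, and was called in replicate 2 against 1 alone, with a log2 fold change of 0.32 ± 0.08 (SE). H4C2 was at 24.9, 32.6 and 28.2 CPM on PVA, beside 21.7, 31.2 and 29.1 on PEDOT, with 0.45 ± 0.09 (SE) in that contrast. H2BC4 was at 53.3, 42.3 and 53.1 CPM on PVA, beside 37.4, 37.7 and 54.4 on PEDOT, and was called in replicate 3 against 2 with 0.43 ± 0.11 (SE). H2BC12, singled out because it was the 1 member called lower, was at 21.01, 24.8 and 16.9 CPM on PVA, beside 16.8, 22.1 and 16.8 on PEDOT. It was lowest in replicate 3, with a log2 fold change of -0.47 against replicate 2 (adjusted p 0.00585 in edgeR's test). H4C13, chosen for the largest fold change, 1.72 in replicate 3 against 1 (adjusted p 0.0124), was weakly expressed at 0.217 to 0.913 CPM.

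**Figure D4:**
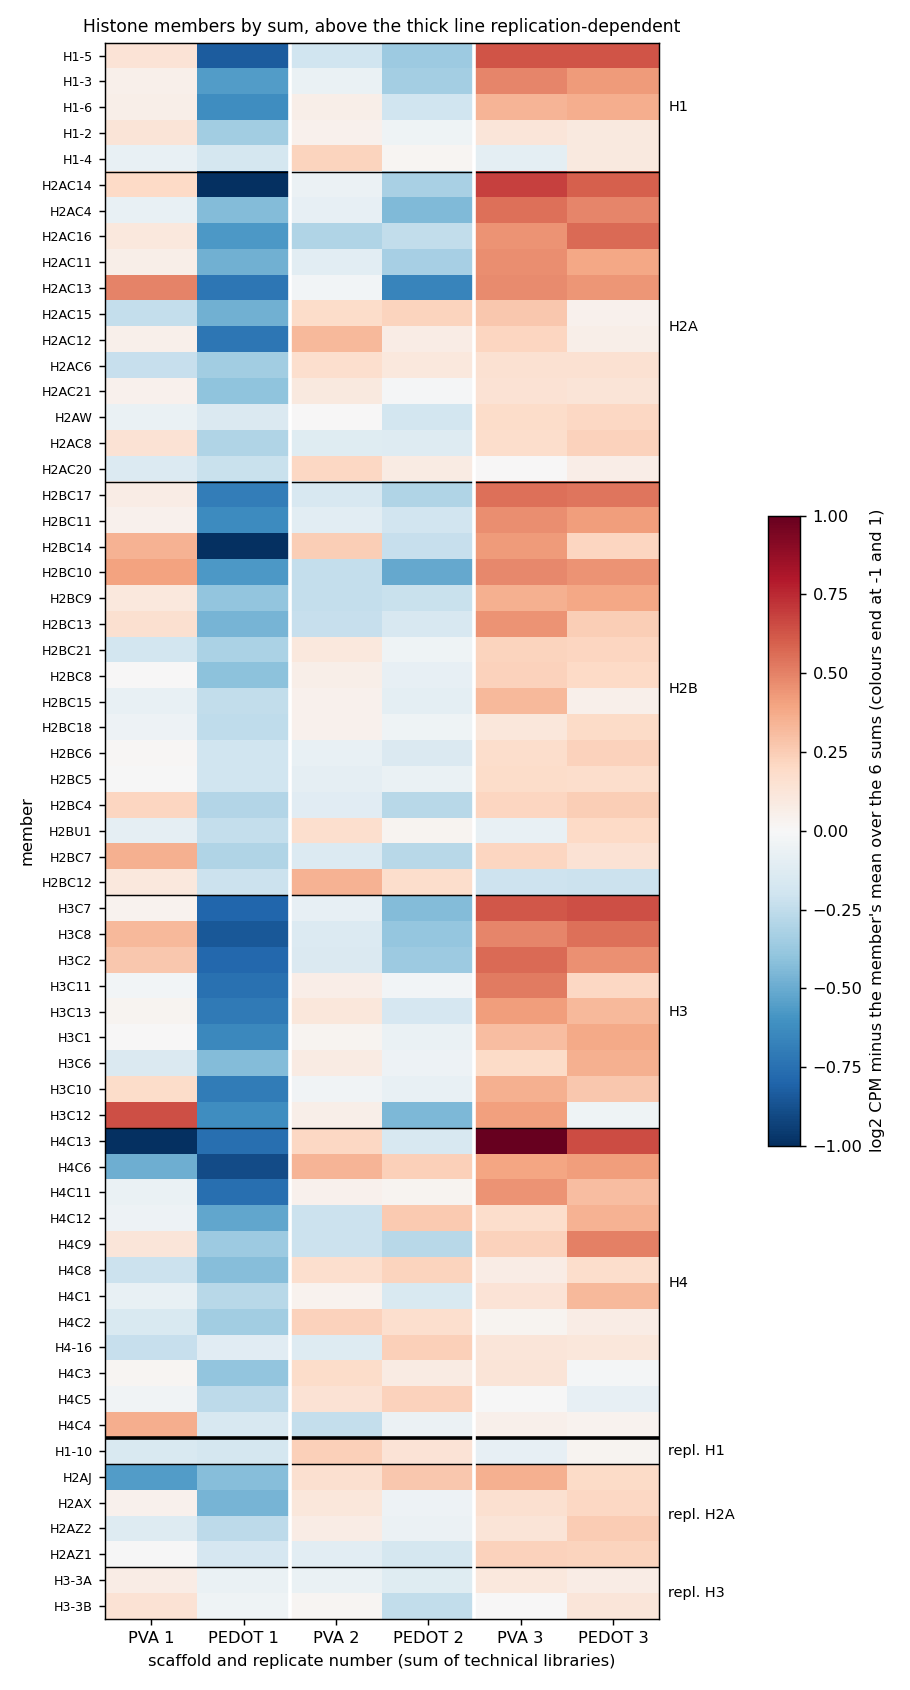
Log2 CPM of histone members relative to each member's mean over the 6 sums, by scaffold and replicate number. Rows are grouped by class and family and ordered within a family by the change in replicate 3 against 1. Most replication-dependent rows are blue in PEDOT 1 and red in both sums of replicate 3, and replacement rows are paler.

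Divergent H2A and H2B genes share a promoter region. By gene spans that do not overlap in the deposited annotation, 8 such pairs were found among the members, 219 to 331 bases apart. H2AC15 and H2BC15, which are divergent by their RefSeq starts, were not counted, since their annotated spans overlap. In replicate 3 against 1, H2AC11 and H2BC11 were at 0.63 and 0.72, H2AC13 and H2BC13 at 0.54 and 0.49, and H2AW and H2BU1 at 0.30 and 0.23. Of these 8, the widest gap within a pair was 0.61, between H2AC12 at 0.45 and H2BC12 at -0.16, and the next was 0.46, between H2AC14 at 1.03 and H2BC14 at 0.57. Levels within pairs were unequal, with H2AC20 at 134 and H2BC21 at 55.5 CPM per kilobase, and H2AC12 at 12.7 and H2BC12 at 51.8. The first order rests on annotated exons of 390 and 2194 bases. In mean CPM it was reversed, with H2AC20 at 52.3 and H2BC21 at 122. H2AC12 and H2BC12 kept their order at 4.91 and 19.7 CPM. By block, the median change in replicate 3 against 1 was 0.43 for the first HIST1 block, 0.48 for the middle, 0.57 for the last and 0.31 for HIST2.

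Replacement members had medians nearer 0, a difference between classes that was not tested. In replicate 3 against 1, 4 of 8 were called higher and 0 lower, with a median of 0.22, beside 6.79% and 6.42% of all genes. In replicate 3 against 2, 2 were called higher and 0 lower, with a median of 0.18, beside 11.9% and 7.57% of all genes. In replicate 2 against 1, 2 were called higher and 1 lower, with a median of 0.07, beside 13.3% and 15.7% of all genes. H2AZ1 was at 41.8, 38.9 and 49.3 CPM on PVA, beside 37.3, 37.1 and 48.9 on PEDOT, highest in replicate 3 of both scaffolds, with 0.31 ± 0.08 (SE) against replicate 1 (adjusted p 0.0223 in edgeR's test). That call was lost with library-size scaling alone, where it was 0.24 (adjusted p 0.0729), and in 6 further alternatives. H2AZ2 was at 108, 125 and 129 CPM on PVA, beside 98.9, 114 and 141 on PEDOT, with 0.39 ± 0.09 (SE) in the same contrast (adjusted p 0.00716), not called without PEDOT replicate 3 (0.26, adjusted p 0.292). H2AX, at the levels given above, was called higher too, with 0.39 ± 0.12 (SE, adjusted p 0.0387).

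H2AJ was at 3.08, 5.07 and 5.78 CPM on PVA, beside 3.38, 5.47 and 5.17 CPM on PEDOT. Both sums of replicate 1 were below the 4 others, and the log2 fold change was 0.76 ± 0.17 (SE) in replicate 3 against 1 (adjusted p 0.00791 in edgeR's test), not called without PVA replicate 3 (0.62, adjusted p 0.149). H1-10 was at 33.2, 43.6 and 34.9 CPM on PVA, beside 32.7, 40.5 and 37.6 on PEDOT, highest in replicate 2, with 0.35 ± 0.09 in replicate 2 against 1 (SE, adjusted p 0.00757 in edgeR's test). That call was lost without PVA replicate 2 (0.29, adjusted p 0.0916) and with the higher-numbered libraries alone (0.18, adjusted p 0.290). H3-3A was at 98.0, 88.8 and 100.4 CPM on PVA, beside 88.8, 85.4 and 98.0 on PEDOT, and H3-3B at 77.2, 71.0 and 70.3 on PVA and 68.0, 59.0 and 76.1 on PEDOT. Neither H3.3 gene was called for the replicate number (adjusted p 0.170 and 0.263 in edgeR's test), and H3-3B was lowest in PEDOT replicate 2.

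**Figure D5:**
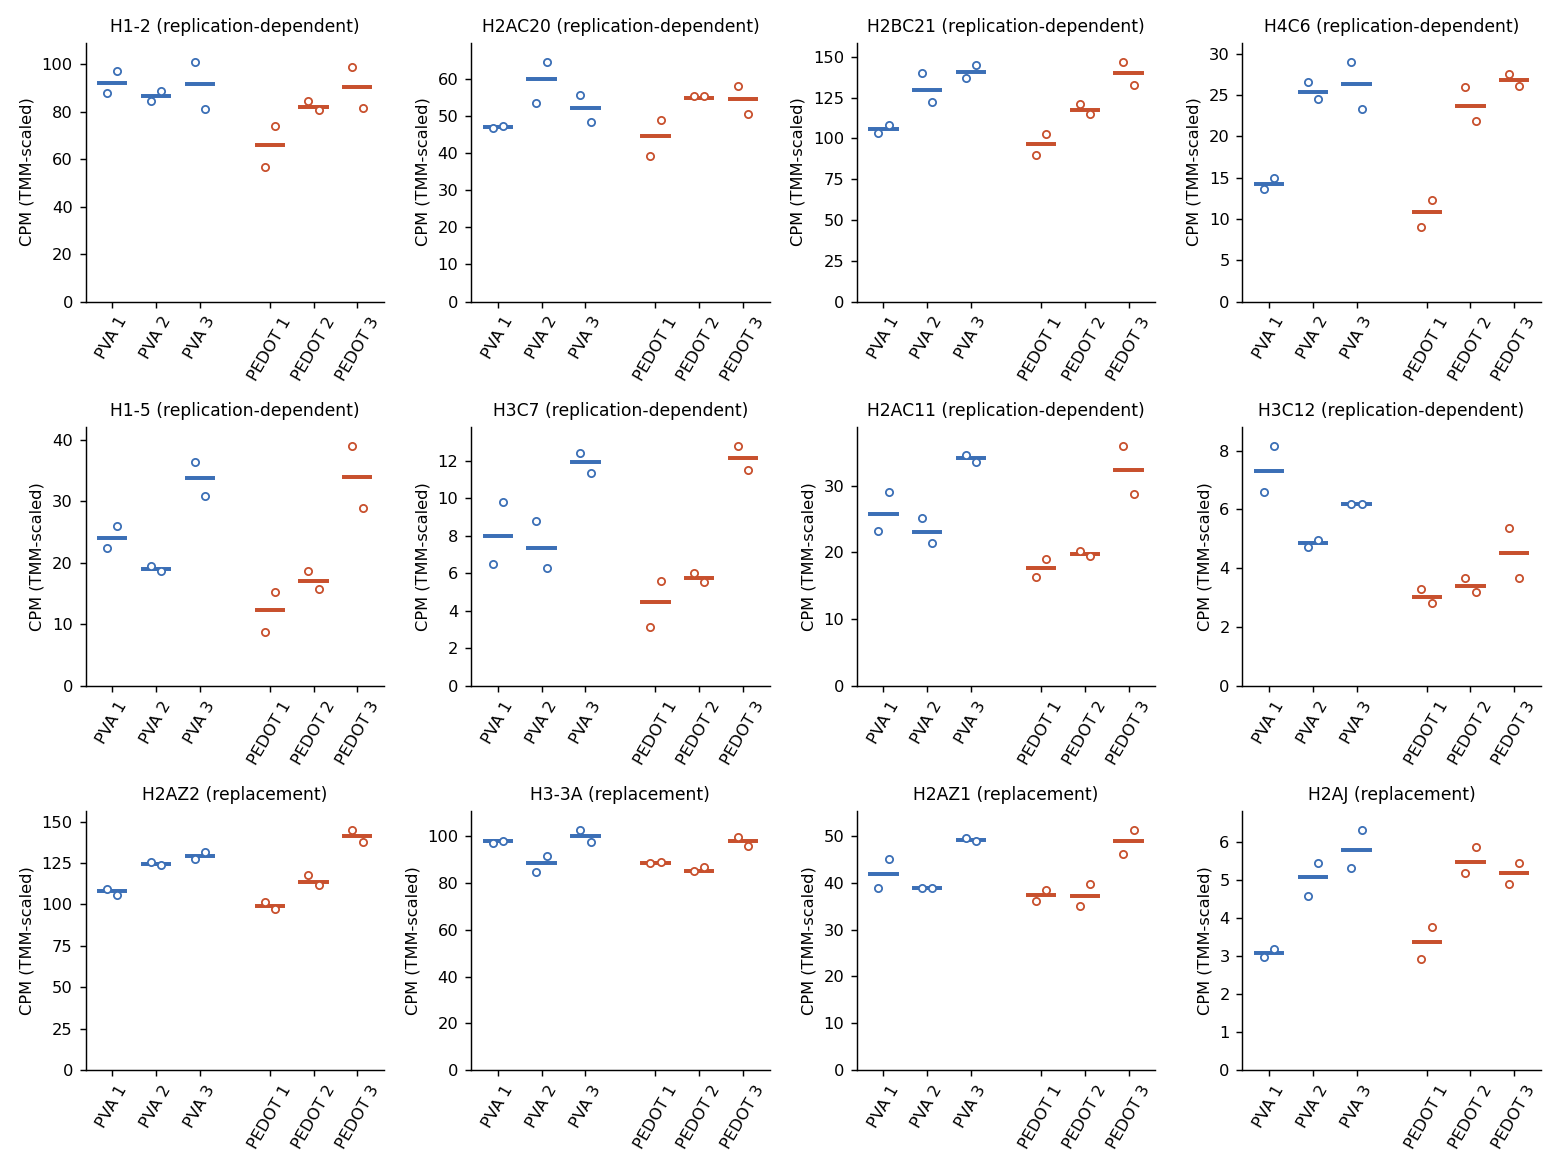
CPM of 12 members by scaffold and replicate number, with bars for sums and circles for single libraries, on axes from 0. H4C6 is low in replicate 1 of both scaffolds, H1-5, H3C7 and H2AC11 are high in replicate 3 of both, and H3C12 is lower in each PEDOT sum than in each PVA sum.

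The other genes of histone supply were read from lists. Of the S phase list 26 of 41 genes were called higher in replicate 3 against 1 and 0 lower, with a median of 0.55, and of the mitosis list 23 of 32 and 0, with a median of 0.80, beside 6.79% and 6.42% of all genes. In replicate 3 against 2 these were 23 and 18 called higher and 0 lower in both, beside 11.9% and 7.57% of all genes. In replicate 2 against 1, 5 of 41 S phase genes were called higher and 2 lower, no more than the 13.3% and 15.7% of all genes, and no mitosis gene was called. DTL, which guides proteins to destruction in S phase, was at 11.5, 13.03 and 20.3 CPM on PVA, beside 9.74, 12.2 and 21 on PEDOT, with 0.96 ± 0.11 (SE) in replicate 3 against 1 (adjusted p 6.02e-05 in edgeR's test). CLSPN, the checkpoint adaptor claspin, had 0.73 ± 0.14 in that contrast, and ANLN and ASPM, which act in cytokinesis and at the spindle, 0.78 ± 0.13 and 0.97 ± 0.18. Replicate 3 was the highest of the numbers on each scaffold in all of these.

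Histone message production and chaperones were read in the same contrast, in which 6.79% of all genes were called higher and 6.42% lower. Of 26 genes of transcription and 3′ end processing, 1 was called higher and 1 lower, with a median of 0.05, a share near that of all genes. SLBP, the protein that binds the stem-loop, was at 16.3, 13.1 and 15.4 CPM on PVA, beside 14.3, 11.98 and 13.5 on PEDOT, and was not called (-0.08 ± 0.11 in replicate 3 against 1, SE, adjusted p 0.692 in edgeR's test). SYMPK, a scaffold of the cleavage complex, was the gene called lower, with -0.31 ± 0.08 (SE), and CDK2, which phosphorylates the histone locus factor NPAT, the gene called higher, with 0.36 ± 0.09. Of 13 replication-coupled chaperones 3 were called higher and 0 lower, with a median of 0.16, among them CHAF1B of chromatin assembly factor 1, at 2.86, 2.83 and 5.25 CPM on PVA, beside 2.29, 3.30 and 5.09 on PEDOT, with 1.01 ± 0.19 (SE). Of 20 replication-independent chaperones and exchangers 2 were called higher and 0 lower, with a median of -0.04, again near the share of all genes. The 2 called were ANP32E, which removes H2A.Z, with 0.30 ± 0.09 (SE), and DEK, an H3.3 chaperone, with 0.42 ± 0.08.

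Other RNAs differed with the replicate number as well. Of 14 listed noncoding RNAs without a poly(A) tail 5 were tested and 9 were not. Of the 5, 3 were called higher in replicate 2 against 1, with a median of 0.89, beside 13.3% of all genes. In replicate 3 against 1, 3 were called higher too, with a median of 0.61, beside 6.79% of all genes. In replicate 3 against 2, 2 were called lower, with a median of -0.54, beside 7.57% of all genes. RN7SL1, the RNA of the signal recognition particle, was at 3601, 8559 and 5546 CPM on PVA, beside 4409, 10027 and 6754 CPM on PEDOT, highest in replicate 2. In single libraries the sum of 9 fibroblast markers was 3516 to 6948 CPM in replicate 1, 716 to 991 in replicate 2 and 2728 to 3665 in replicate 3. Cardiomyocyte markers were at 60976 to 67736, 73066 to 93495 and 75520 to 84426 CPM in the same order. Smooth muscle and pericyte markers were at 1730 to 2338, 1011 to 1314 and 1326 to 1865, neural markers at 17.05 to 27.99, 7.67 to 9.33 and 13.6 to 17.03, and immune markers at 1.09 to 2.44 CPM in all libraries with CD3E at 0. The part of cell makeup and of RNA type in the replicate differences of histone genes was not tested.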

How the data were processed

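The authors deposited 1 table of unnormalized counts, fragments per gene name, for 12 libraries. Per the file headers the authors counted with featureCounts 2.0.1, paired and reversely stranded, on GENCODE 33. No option for multi-mapping or overlapping features stands in that command, and by that tool's default such reads are dropped. Exon lengths come from the same table. STAR, FastQC and the build hg38 are listed in the submitters' processing notes, beside DESeq2 and edgeR, without settings. Libraries were ribodepleted total RNA, per the labels' protocols.

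Technical libraries were summed, since the labels give 2 per biological replicate. By a chi-square of 6.67 to 16.96 per gene between them, they differed beyond counting error. Fits used edgeR 4.0.16 in R 4.3.3: TMM factors, filterByExpr (minimum count 10, minimum total 15), the quasi-likelihood F test across all 21298 genes and Benjamini-Hochberg adjustment at 0.05. The scaffold fit had the scaffold alone, and the replicate fit the scaffold and the replicate number. Log2 CPM used a prior count of 2. Marker sums are CPM of a library's total, without TMM. The fits were tested on simulated counts. Tables and figures were made with Python.

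Same-numbered sums of the scaffolds deviated together (correlations 0.678, 0.703 and 0.503 across genes, others -0.609 to -0.00497), and the numbers were taken to pair the samples. Deviations were from each scaffold's mean, so positive values for equal numbers force negative ones among the others, which are no separate support. The pairing comes from the values, as no label says so, and the replicate block was an alternative. Scaffold log2 fold changes of single genes come from the fit without the block unless the block is named. Other alternatives were DESeq2 1.42.0, library size alone, looser and stricter filters, single technical libraries and leaving out each sum. Added after seeing the data were leaving out each library and each pair under the block. Named members were, per class, up to 2 per family of highest CPM per kilobase, 3 of smallest p in the scaffold fit and 5 in the replicate fit, and 2 genes per list and fit. The members, classes and gene lists were chosen with earlier results of these data known. Values of 1 member and 1 marker gene are not reported here.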

Additional observations from a re-analysis of the deposited data

Results flagged for a closer look

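The 6 libraries of a scaffold were searched for a library far from the others, in 54 sets of values (the named members and 4 class measures on each scaffold), where chance flags about 1 in 20. Only 1 stood apart. H3C12 was at 5.36 CPM in library 1 of PEDOT replicate 3, against 3.68 in the next highest PEDOT library, a gap of 0.661 of the whole range with a critical value of 0.625. The technical libraries of a replicate are not independent samples.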

How the results depend on the processing

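Genes called for the scaffold were 0 in the main fit, 57 with the replicate block, and 170, 22 and 284 under that block without pair 1, 2 or 3. Histone members called for the scaffold were 0 in all alternatives but the replicate block without pair 3, where they were 6. Histone members called for the replicate number were 37, 23 with a mean CPM of 5 or more (fewer genes tested), 18 with the higher-numbered technical libraries alone, 28 with DESeq2, and 21 to 46 without each sum. In the same order, 6776, 4781, 4971, 5257 and 4538 to 7300 of all genes were called. The replication-dependent median in replicate 3 against 2 was 0.32, 0.20 with the higher-numbered libraries alone, 0.22 without library 1 of PEDOT replicate 3, and 0.19 to 0.46 without each sum. The scaffold median was -0.39 to -0.02 for replication-dependent and -0.16 to -0.014 for replacement members without each sum. H3-3B turned from -0.11 to 0.012 in the scaffold fit with the lower-numbered libraries alone. The causes were not tested. The 6 sums give 4 residual degrees of freedom to the scaffold fit. Counts of near-identical genes are limited by the reads left out, and members near 100 counts carry the largest counting error.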
